A study of Mus musculus with 6 samples.

Results

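Kit, Flt3, Csf1r, Samd14, Sh2b3 and Cbl, 6 genes that carry or restrain receptor tyrosine kinase signalling, were followed in a sorted gate of the mouse fetal liver. The labels call these cells erythroid precursors in both genotypes, but in -77-/- 13 erythroid markers summed to 3334 to 8084 normalized reads, against 52028 to 56000 in wild type. They were taken by symbol from the deposited table, where each matched exactly 1 of 19436 genes. The cells came from C57BL/6 embryos at E14.5 and were sorted for medium CD71, the transferrin receptor, and absence of Ter119, a marker of later red cell stages. Tfrc, the gene of CD71, is 1 of the 13 erythroid markers and held most of each -77-/- sum. It had 14576 ± 2815 normalized reads in wild type and 3307 ± 891 in -77-/-. The genotypes compared, with 3 libraries each, were wild type and -77-/-, in which an enhancer that lies at -77 kb from Gata2 is missing from both alleles. The labels name no litter, sex or batch and do not tie a library to an embryo. A p-value here therefore speaks only of the scatter among these 6 libraries. The comparison asks how RNA levels in the sorted gate differ without the enhancer.

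Kit, Flt3 and Csf1r belong to the class III receptor tyrosine kinases, which pair up on ligand binding, phosphorylate themselves and recruit adaptors that feed the PI3 kinase, MAP kinase and STAT5 routes. Kit, the receptor of stem cell factor, drives the growth of stem cells, mast cells and early erythroid cells, while Flt3 acts in early lymphoid, myeloid and dendritic progenitors and Csf1r in monocytes and macrophages. Samd14 is a GATA2 target that promotes signalling from Kit, Sh2b3 (Lnk) is an adaptor that dampens Kit and cytokine receptors, and Cbl is a ubiquitin ligase that sends active receptors for degradation.

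All 6 genes changed in -77-/-, with Kit and Samd14 lower and Flt3, Csf1r, Sh2b3 and Cbl higher. Values are the authors' normalized reads, meaning gene counts divided by a size factor per library. A gene counted as changed at a Benjamini-Hochberg adjusted p under 0.05 in limma, run on log2(normalized reads + 1) over the 15821 genes whose mean reached 10 in the higher genotype. Each of the 6 genes passed that filter in both genotypes. At this threshold 32.2% of all tested genes changed, 16.9% upward and 15.2% downward, so being called does not set these genes apart. For none of the 6 did the genotypes overlap, which was also true of 46.5% of tested genes (25.0% with -77-/- above and 21.4% with -77-/- below). Libraries held 16516338 to 20468899 recovered reads. Fewer cells of a type and less RNA per cell cannot be told apart in these bulk samples.

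**Figure D1:**
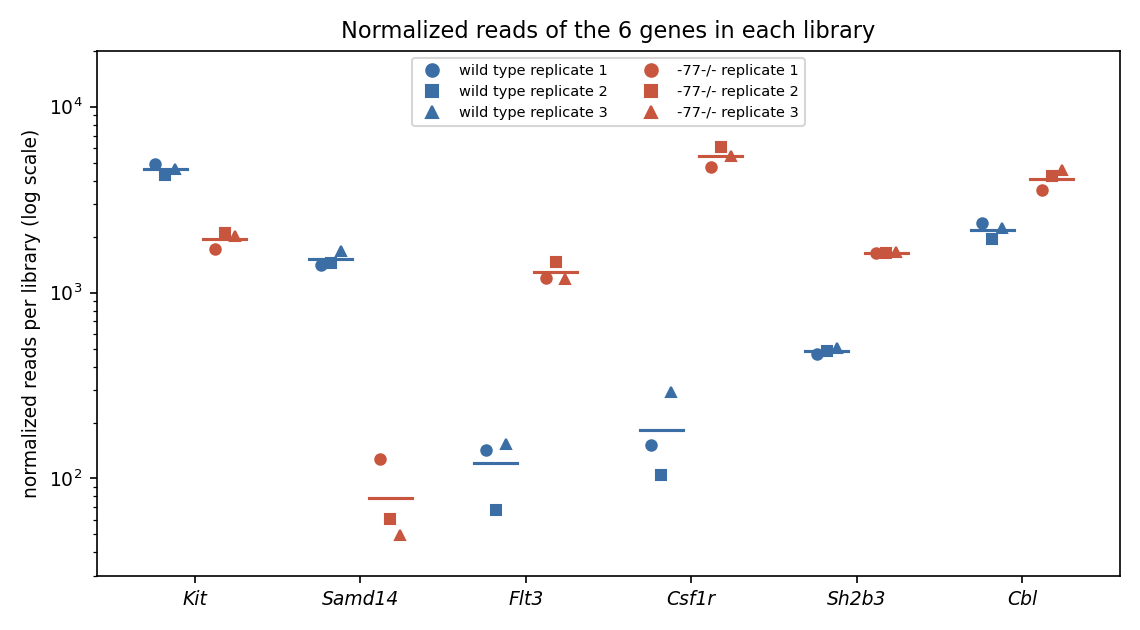
Normalized reads (log axis) of each of the 6 genes, with 1 point per library and a bar at the mean of each genotype (blue wild type, red -77-/-, n = 3 each). Kit and Samd14 sit lower and the other 4 genes higher in -77-/-, with no overlap between genotypes.

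The promoters of Kit and Flt3, receptors that moved in opposite directions, and of Cbl are shown because Kit and Cbl hold a letter run that Flt3 lacks in these windows. Each window is the 250 bases before the RefSeq start on build GRCm38.p6, read 5′ to 3′ on the gene's strand. Kit lies at chr5:75574737-75574986 (plus strand, the more upstream of 2 starts listed), Flt3 at chr5:147400490-147400739 (minus strand) and Cbl at chr9:44234047-44234296 (minus strand). Capitals mark GAGGAA, a run found in sites of ETS factors, on either strand.
Kit: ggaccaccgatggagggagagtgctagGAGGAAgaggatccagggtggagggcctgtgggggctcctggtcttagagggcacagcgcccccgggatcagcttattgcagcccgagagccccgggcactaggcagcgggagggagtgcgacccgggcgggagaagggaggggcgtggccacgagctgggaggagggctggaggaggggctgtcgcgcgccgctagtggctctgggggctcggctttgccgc
Flt3: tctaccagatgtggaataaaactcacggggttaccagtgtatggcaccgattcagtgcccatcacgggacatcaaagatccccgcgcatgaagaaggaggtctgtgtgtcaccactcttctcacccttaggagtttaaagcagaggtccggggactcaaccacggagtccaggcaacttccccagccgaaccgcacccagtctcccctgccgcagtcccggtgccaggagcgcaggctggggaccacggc
Cbl: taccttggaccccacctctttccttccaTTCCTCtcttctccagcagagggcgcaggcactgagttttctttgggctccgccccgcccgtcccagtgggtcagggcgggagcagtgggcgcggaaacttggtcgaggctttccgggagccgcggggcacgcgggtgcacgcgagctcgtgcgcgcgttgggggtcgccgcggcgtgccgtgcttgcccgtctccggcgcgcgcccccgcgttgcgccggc
The run begins 223 bases before the start in Kit and, on the opposite strand, 222 bases before the start in Cbl. It occurs in 23.3% of all 32851 RefSeq windows of this length. Windows of 4 of the 6 genes were found, the fourth being that of Sh2b3, which lacks it too. The run AGATAA, of the GATA family, was in none of the 4 windows on either strand, and in 9.99% of all windows. The related run TGATAA was also in none of the 4, and in 7.94% of all windows. CCACACCC, of the KLF family, was absent too and occurs in 3.20%. TGTGGT, of the RUNX family, was likewise absent and occurs in 14.0%. A match is a description of letters and not a measured binding site.

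Kit (ENSMUSG00000005672, chromosome 5) fell in -77-/-. Wild type libraries gave 4907, 4271 and 4612 normalized reads (replicates 1, 2 and 3) and -77-/- libraries gave 1711, 2097 and 2009. The lowest wild type library thus stood above the highest -77-/- library. Mean levels were 4596 ± 318 in wild type and 1939 ± 202 in -77-/- (SD, n = 3 here and below), 2.37-fold lower. limma put the change at -1.25 log2 units (SE 0.12, adjusted p = 1.04e-06). In size it was an ordinary change, since 32.8% of all tested genes moved further in either direction.

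Samd14 (ENSMUSG00000047181, chromosome 11) showed the larger drop. Wild type libraries gave 1415, 1447 and 1673 normalized reads and -77-/- libraries 127, 60.3 and 49.5, again in the order of replicates. The genotypes were far apart, at 1512 ± 141 and 79.0 ± 42.0, or 19.1-fold. limma put the change at -4.36 log2 units (SE 0.31, adjusted p = 6.18e-08), and 138 of the 15821 tested genes fell further. Among the -77-/- libraries replicate 1 kept the most Samd14. That library also held the highest sum of 13 erythroid markers, at 8084 normalized reads against 3334 and 4616 in replicates 2 and 3, and without it the log2 fold change of Samd14 was -4.76. Kit went the other way and was lowest in replicate 1, at 1711 normalized reads against 2097 and 2009 in replicates 2 and 3. The order of Samd14 is not particular to erythroid markers. Early lymphoid, dendritic, megakaryocyte and progenitor marker sums, described below, were also highest in replicate 1 among the -77-/- libraries. Monocyte, granulocyte, mast cell and liver sums were not.

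Csf1r (ENSMUSG00000024621, chromosome 18) had the largest change of the 6 genes. Wild type libraries gave 151, 104 and 293 normalized reads and -77-/- libraries 4712, 6103 and 5456. The wild type level was low and uneven, the -77-/- level high in each library. Mean levels were 183 ± 98.4 and 5423 ± 696, or 29.7-fold, and limma put the change at 5.01 log2 units (SE 0.36, adjusted p = 3.86e-05). A further rise than this was seen in 148 tested genes. In the GENCODE M21 annotation 873 exon bases of Csf1r also belong to Hmgxb3 on the opposite strand, and the strand setting of the counts is unknown. Hmgxb3 itself had 737 ± 73.2 and 570 ± 83.4 normalized reads (log2 fold change -0.38, limma adjusted p = 0.136).

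Flt3 (ENSMUSG00000042817, chromosome 5) moved in the same direction as Csf1r. Wild type libraries gave 142, 67.9 and 154 normalized reads and -77-/- libraries 1203, 1461 and 1185. Mean levels were 121 ± 46.5 and 1283 ± 155, or 10.6-fold, and limma put the change at 3.47 log2 units (SE 0.29, adjusted p = 3.02e-07). Flt3 and Csf1r had the same highest library in each genotype, replicate 3 in wild type and replicate 2 in -77-/-. Wild type replicate 2 was the lowest for both. That library alone was high in Xist, the RNA that coats the inactive X chromosome, at 41877 normalized reads against 28.5 to 63.2 in the others. Without it the log2 fold changes were 3.10 for Flt3 and 4.67 for Csf1r.

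The brakes Sh2b3 and Cbl rose. Sh2b3 (ENSMUSG00000042594, chromosome 5) had 468, 486 and 506 normalized reads in the wild type libraries and 1634, 1642 and 1652 in the -77-/- libraries, the tightest values of the 6 genes. Its means of 487 ± 18.9 and 1643 ± 9.06 differed 3.38-fold, which limma put at 1.75 log2 units (SE 0.15, adjusted p = 3.37e-07). Sh2b3 has 99 exon bases in common with Atxn2 on the opposite strand, and Atxn2 fell from 1416 ± 100.001 to 971 ± 54.6 (limma adjusted p = 0.00717). Cbl (ENSMUSG00000034342, chromosome 9) had 2361, 1936 and 2228 normalized reads in wild type and 3549, 4224 and 4548 in -77-/-. This was the smallest change of the 6, from 2175 ± 218 to 4107 ± 509.9, or 1.89-fold (0.91 log2 units, SE 0.13, limma adjusted p = 4.98e-05). Larger changes in either direction were seen in 42.2% of tested genes for Cbl and in 23.3% for Sh2b3.

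Each of the 6 calls held, with its direction, in all 13 alternative analyses. The share of all tested genes called there was 30.5% and 33.4% with pseudocounts of 0.1 and 5, 26.3% with no filter on low values and 34.3% with a filter on the mean of all 6 libraries. It was 29.9% with edgeR, 33.1% with DESeq2 and 32.4% with limma-voom on whole reads. Leaving out a library gave 29.7%, 27.8% and 32.3% for wild type replicates 1, 2 and 3 and 28.0%, 25.0% and 25.1% for -77-/- replicates 1, 2 and 3. The authors' deposited table, a DESeq2 comparison, lists log2 fold changes of -1.25 for Kit, -4.27 for Samd14, 3.41 for Flt3, 4.89 for Csf1r, 1.76 for Sh2b3 and 0.92 for Cbl. All 6 had an adjusted p under 0.05 in the authors' deposited table, as did 31.1% of the 17124 genes given one there.

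Divided by exon length, the levels fell into a different order in each genotype. In wild type Kit led with 516 ± 35.7 normalized reads per kb of exon. Samd14 came next at 447 ± 41.6 per kb, and its libraries (419 to 495) overlapped those of Kit (479 to 551). Cbl at 176 ± 17.6 and Sh2b3 at 101 ± 3.94 per kb lay in the middle and did not overlap. Csf1r at 31.6 ± 17.0 and Flt3 at 19.6 ± 7.53 per kb were lowest and overlapped each other. In -77-/- Csf1r led with 939 ± 121 per kb, and its lowest library (816) was above every library of the other 5 genes. Sh2b3 (342 ± 1.88 per kb) and Cbl (333 ± 41.3) followed and overlapped. Kit (218 ± 22.7 per kb) and Flt3 (208 ± 25.0) came next at overlapping levels, and Samd14 was last at 23.4 ± 12.4 per kb. Exon lengths are from GENCODE M21 on GRCm38 and may differ from the annotation the authors used.

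**Figure D2:**
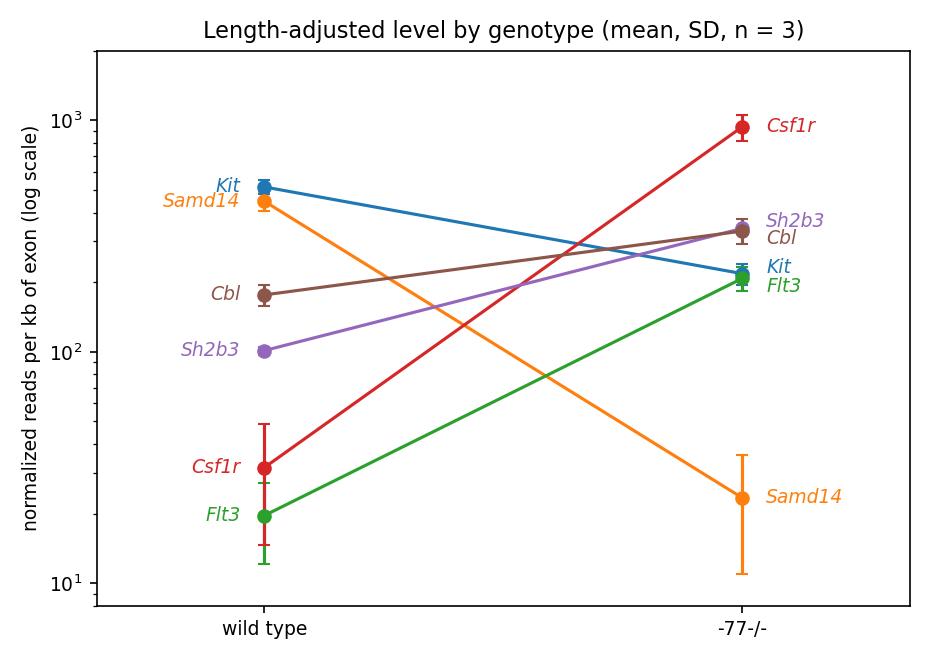
Mean normalized reads per kb of exon (log axis) of each gene in wild type and -77-/-, with the SD over 3 libraries as error bars and a line joining the genotypes. Csf1r goes from 31.6 to 939 per kb and Samd14 from 447 to 23.4, while Kit (218) and Flt3 (208) meet in -77-/-.

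The balance of the receptors was read within each library, where the size factor cancels. The ratio of Kit to Csf1r normalized reads was 32.5, 41.2 and 15.7 in the wild type libraries. It was 0.363, 0.344 and 0.368 in the -77-/- libraries. Kit thus exceeded Csf1r in every wild type library and Csf1r exceeded Kit in every -77-/- library, as they also did per kb of exon, where the ratio ran from 10.2 to 26.7 and from 0.223 to 0.239. On the log2 scale the mean ratio went from 4.79 ± 0.72 to -1.48 ± 0.05, a difference of -6.27, or 77.1-fold. The exact two-sided permutation test gave p = 0.1, the smallest that 3 libraries against 3 allow. Each of the other 4 ratios gave the same exact p, and adjustment over the 5 ratios left it at 0.1. Kit fell, and Csf1r, Sh2b3 and Cbl rose, without overlap between genotypes. The exact p of Kit to Csf1r, Sh2b3 to Kit and Cbl to Kit was therefore fixed in advance and adds no support.

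The other ratios show how unequally the genes moved. Flt3 had fewer reads than Csf1r in all libraries, but only narrowly in wild type replicate 1, at 142 against 151 normalized reads. The log2 ratio of Flt3 to Csf1r went from -0.54 ± 0.42 to -2.08 ± 0.12. Samd14 dropped relative to Kit, from 0.288, 0.339 and 0.363 times the Kit reads in wild type to 0.0743, 0.0287 and 0.0246 times in -77-/-, a difference of -3.13 in log2 ratio. The ratio of Sh2b3 to Kit went from between 0.0954 and 0.114 in wild type to between 0.783 and 0.955 in -77-/-, 8.02-fold higher. The ratio of Cbl to Kit went from between 0.453 and 0.483 to between 2.01 and 2.26, or 4.48-fold higher. The genotypes did not overlap in any of these ratios.

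**Figure D3:**
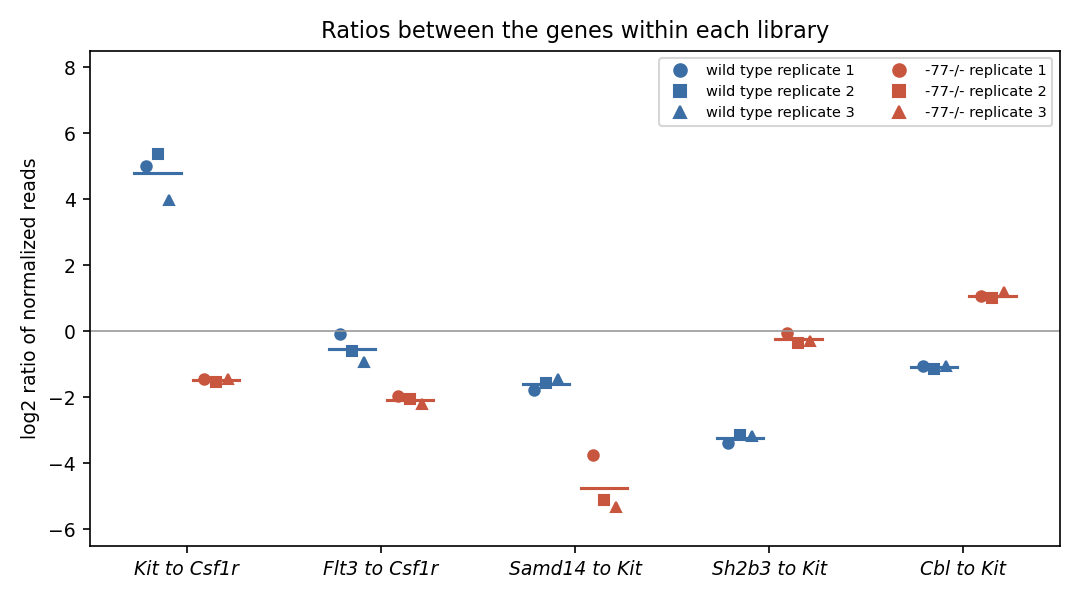
Log2 ratio of normalized reads between pairs of the 6 genes in each library, with a bar at each genotype mean (n = 3). The Kit to Csf1r ratio lies between 3.98 and 5.36 in wild type and between -1.54 and -1.44 in -77-/-.

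The class III receptors and their ligands had 10 genes in the table, 3 of which were too low to test. Of the others 3 rose, 1 fell and 3 did not pass, beside 16.9% higher and 15.2% lower among all tested genes. Their median log2 fold change of 3.47, beside 0.10 over all tested genes, rests on 7 genes, 3 of which passed the filter only through the higher genotype. This median is the value of Flt3 itself. Kit, Flt3 and Csf1r make up all the calls in the list but that of Pdgfrb, so the median does not describe the list apart from them. Besides Kit, Flt3 and Csf1r, the platelet-derived growth factor receptor gene Pdgfrb rose from 4.75 ± 6.36 to 72.2 ± 20.5 normalized reads (limma adjusted p = 0.0086). That call was lost when -77-/- replicate 2 was dropped (limma, 0.0579), and its adjusted p spanned 0.0016 to 0.0579 over the alternatives. Its relative Pdgfra had 5 reads over the wild type and 14 over the -77-/- libraries.

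The ligand genes were low throughout. Kitl, which encodes stem cell factor, had 0 reads in wild type and 20 in -77-/- and was not tested. Flt3l, the ligand of Flt3, had 75.2 ± 31.6 and 44.9 ± 16.6 normalized reads (log2 fold change -0.69, limma adjusted p = 0.427). Csf1, a ligand of Csf1r, had 7.90 ± 10.4 and 41.9 ± 28.2 (limma adjusted p = 0.0857), and passed only without wild type replicate 1 (0.0369, range 0.0369 to 0.287). Of the platelet-derived growth factors, Pdgfa had 0 reads in wild type and 48 in -77-/- (limma adjusted p = 0.0698). It passed with DESeq2 (adjusted p = 0.0247) and with no filter on low values (0.0315, range 0.0247 to 0.226). Pdgfb had 7 and 5 reads.

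Genes that carry the signal onward numbered 46, and 1 passed the filter only through the higher genotype. Of the 46, 20 rose, 9 fell and 17 did not pass, beside 16.9% higher and 15.2% lower among all tested genes. The median log2 fold change of the 46 was 0.12. Among those that rose, the kinase Fes went from 184 ± 67.9 to 2012 ± 248 normalized reads. Plcg2, a phospholipase, rose from 755 ± 172 to 5335 ± 39.2, the PI3 kinase subunit Pik3cd from 562 ± 76.4 to 2120 ± 132, and the exchange factor Vav1 from 764 ± 166 to 2855 ± 221. Among those that fell, the docking protein gene Gab1 went from 935 ± 103 to 123 ± 11.1 (-2.91 log2 units, limma adjusted p = 1.74e-07). The kinase Fer fell from 318 ± 31.7 to 73.0 ± 14.2, and Stat5a, a transcription factor downstream of Kit and the erythropoietin receptor, from 1173 ± 93.7 to 464 ± 103. Hras1 and the PI3 kinase subunit Pik3r2 had log2 fold changes of -0.65 and -0.62. Their calls ended without -77-/- replicate 2 (limma adjusted p = 0.0543 and 0.0954) and without -77-/- replicate 3 (0.0774 and 0.104), and that of Pik3r2 also without wild type replicates 1 and 2 (0.0596 and 0.0518). Over all alternatives their adjusted p ran from 0.0108 to 0.0774 and from 0.0121 to 0.104 in limma, edgeR or DESeq2. Without -77-/- replicate 3 the number that fell was 5.

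Genes that restrain or remove the receptors rose in 15 of 27 tested cases, Sh2b3 and Cbl among them, and fell in 2. Among all tested genes 16.9% rose and 15.2% fell. The median log2 fold change of the list was 1.09, and 3 of its genes passed the filter only through the higher genotype. Sh2b2, a family member of Sh2b3, rose from 58.0 ± 20.01 to 441 ± 81.3 normalized reads, and Sla, an adaptor that recruits Cbl, from 261 ± 27.9 to 1909 ± 311. The lipid phosphatase gene Inppl1 had a log2 fold change of 1.92, and its call ended without -77-/- replicates 2 and 3 (limma adjusted p = 0.121 and 0.129, range 0.0075 to 0.129). The cytokine signalling inhibitors Socs3 and Socs1 passed from very low levels, 4 and 9 reads over the wild type libraries. The call of Socs3 ended without -77-/- replicates 2 and 3 (limma adjusted p = 0.109 and 0.0747, range 7.36e-04 to 0.109), and that of Socs1 in 8 of 13 alternatives (range 0.0192 to 0.151). The 2 that fell were Grb10, an adaptor that binds Kit and insulin receptors, and Ubash3a, which binds Cbl. Grb10 went from 6695 ± 72.7 to 566 ± 221 (-3.63 log2 units, limma adjusted p = 5.65e-06) and Ubash3a from 816 ± 235 to 404 ± 72.3.

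Of 12 tested genes induced by MAP kinase activity 3 were higher, 2 lower and 7 not past the threshold, beside 16.9% higher and 15.2% lower among all tested genes. Their median log2 fold change was 1.85, and 2 of the 12, Spry4 among them, passed the filter only through the higher genotype. Dusp6 and Dusp5, phosphatases of ERK, rose from 194 ± 46.2 to 1137 ± 84.2 and from 75.5 ± 24.1 to 435 ± 167 normalized reads. Egr1, an immediate early transcription factor, rose from 353 ± 101 to 1862 ± 761. Spry4 and Spred2, inhibitors of the pathway, fell from 156 ± 85.8 to 6.39 ± 4.66 and from 619 ± 38.1 to 357 ± 91.9.

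Samd14 was listed with the neurabin family and the subunits of actin capping protein, 6 genes with a median log2 fold change of 0.37. Ppp1r9b, which encodes spinophilin, fell from 4414 ± 82.6 to 3408 ± 223 (-0.37 log2 units, limma adjusted p = 0.0112). Ppp1r9a, the neurabin gene, had 387 ± 71.6 and 507 ± 32.8 and did not pass (limma adjusted p = 0.171). The capping protein subunits Capza2 and Capzb rose from 4401 ± 287 to 12113 ± 300.0 and from 6625 ± 1333 to 11809 ± 57.0. Capza1 rose from 7808 ± 715 to 9820 ± 687, and its call ended without wild type replicates 1 and 3 and -77-/- replicates 1 and 3 (limma adjusted p = 0.0665, 0.0597, 0.0780 and 0.0880, range 0.0063 to 0.0880).

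**Figure D4:**
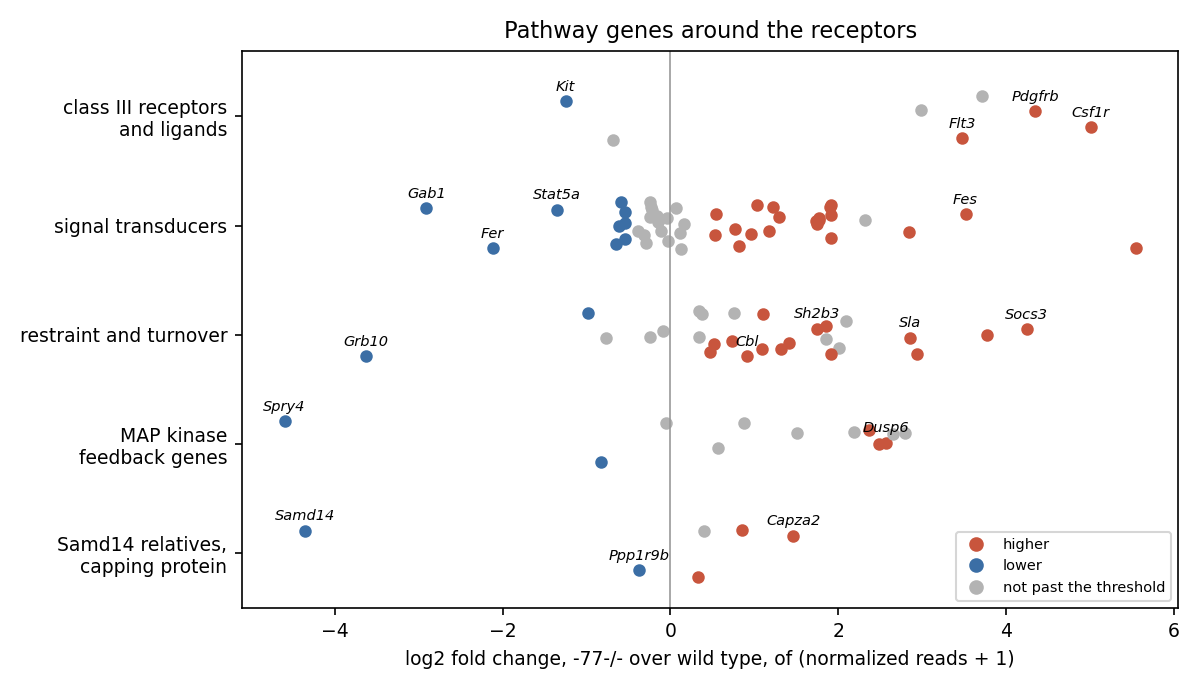
Log2 fold change, -77-/- over wild type, of normalized reads + 1 for each tested gene of 5 lists, coloured by whether limma called it higher (red), lower (blue) or neither (grey). Samd14 (-4.36), Grb10 (-3.63), Gab1 (-2.91) and Spry4 (-4.60) lie far to the left, and Csf1r (5.01) lies far to the right.

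Markers of several blood cell types moved in the same libraries. The counts of each marker list stand beside 16.9% higher and 15.2% lower among all tested genes. Of the 13 erythroid markers, whose sums are given above, 12 fell, and 1 passed the filter only through the higher genotype. Of 11 tested monocyte and macrophage markers 9 rose and 0 fell (12 were matched, and 1 of the 11 passed the filter only through the higher genotype), with sums of 1322 to 2320 in wild type and 19817 to 29079 in -77-/-. Dendritic cell markers, a list that holds Flt3 itself, rose in 6 of 9 cases and fell in 1 (1 of the 9 passed only through the higher genotype), with sums of 927 to 1267 and 6584 to 6922. Early lymphoid markers rose in 7 of 8 cases, or 3 without -77-/- replicate 1, with sums of 929 to 1105 and 3254 to 5786. Granulocyte markers rose in 4 of 9 cases and fell in 3, with a median log2 fold change of -0.13. Their sums were 13825 to 23807 in wild type and 44618 to 48578 in -77-/-. Mpo held most of these sums, at 11805 ± 3123 in wild type and 38959 ± 1865 in -77-/-. In wild type the monocyte, dendritic and granulocyte sums were all lowest in replicate 2 and highest in replicate 3, as Csf1r and Flt3 were. In -77-/- replicate 2 was highest for Csf1r, Flt3 and the monocyte sum, replicate 1 for the dendritic sum and replicate 3 for the granulocyte sum. That granulocyte order was the order of Mpo, at 37033, 39088 and 40756 normalized reads in -77-/- replicates 1, 2 and 3. No marker was at 0 in all 6 libraries. The part of other cells in the changes of the 6 genes was not tested.

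Stem and progenitor markers rose in 4 of 7 tested cases (8 were matched), 2 of the 7 having passed the filter only through -77-/-, with sums of 641 to 746 in wild type and 8480 to 9250 in -77-/-, of which Cd34 held most at 291 ± 18.7 and 7138.5 ± 423. For mast cells, which also carry Kit, 3 markers were in the table, with sums of 230 to 335 and 133 to 177. Hdc, which makes histamine, fell from 247 ± 32.5 to 112 ± 26.1 (limma adjusted p = 0.0154), a call that ended without wild type replicate 1 (0.0559) and without -77-/- replicate 3 (0.0747, range 0.0119 to 0.0747). The mast cell protease gene Cpa3 had 28.0 ± 20.002 and 29.2 ± 10.9. Megakaryocyte marker sums overlapped, at 461 to 708 and 279 to 624, and liver parenchyma sums were 66.9 to 209.7 and 217 to 1213. The liver sum of 1213 was that of -77-/- replicate 3 and came mostly from Alb (435) and Afp (395). Replicates 1 and 2 had liver sums of 217 and 425. Of the GATA factors that act on Kit, Gata1 had 3012 ± 302 and 244 ± 225 normalized reads (limma adjusted p = 0.0125, or 0.0585 without -77-/- replicate 3, range 6.57e-08 to 0.0585). Gata2 had 92.3 ± 33.3 and 44.9 ± 25.7 and did not pass (limma adjusted p = 0.183).

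**Figure D5:**
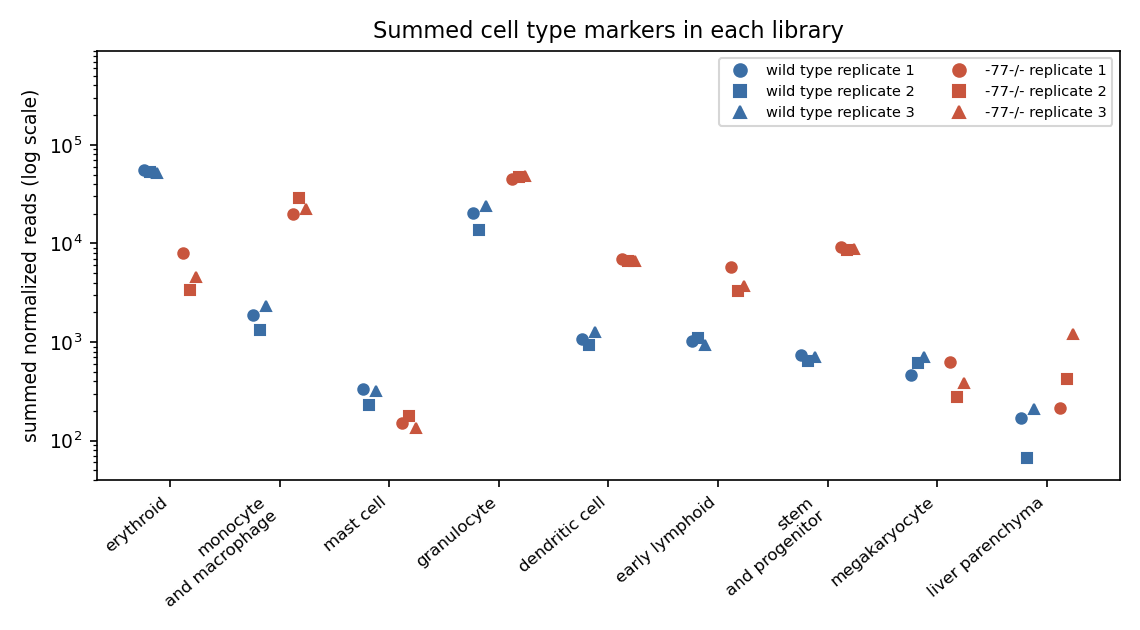
Summed normalized reads (log axis) of each list of cell type markers, with 1 point per library (blue wild type, red -77-/-). Erythroid and mast cell sums are lower in -77-/-, and monocyte, granulocyte, dendritic, lymphoid and progenitor sums higher. Liver sums are also higher, but only narrowly in -77-/- replicate 1, while megakaryocyte sums overlap.

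The genes most like each of the 6 were sought by Pearson correlation of log2(normalized reads + 1) over the 6 libraries among 9743 other genes with a mean of at least 100. With libraries in separate genotypes this likeness mostly restates the difference between them. Kit lay nearest Aqp1 (0.997), Myo1d (0.997) and Atxn7l3b (0.996), whose levels were 1264 ± 172 and 13.2 ± 6.26, 355 ± 81.9 and 18.8 ± 3.16, and 2792 ± 87.3 and 2179 ± 91.8 in wild type and -77-/-. Samd14 lay nearest Adcy6, Kcnn4 and Slc26a1 (each 0.999). Flt3 was closest to Cybb (0.9997), a chain of the phagocyte oxidase, to the inflammatory protease gene Casp1 (0.9996) and to Spna2 (0.9996), a spectrin. Csf1r was closest to Sestd1 (0.9996), Abr (0.9990) and Diap2 (0.9988), and Sh2b3 to Edem1 (0.9995), Fam107b (0.9995) and the Src family kinase gene Lyn (0.9994). Cbl lay nearest Acot11 (0.999), Rbms1 (0.997) and Trim41 (0.995). Genes above 0.99 numbered 250 for Sh2b3, 192 for Csf1r, 168 for Flt3 and 108 for Samd14, so the names given for these are a small draw from many. Fewer genes exceeded 0.99 for Kit (23) and Cbl (16).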

How the data were processed

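Per the labels' protocols, 10 ng of total RNA per library was amplified with a NuGEN Ovation single cell kit, which may distort relative levels. Per the series' design text, reads were single and 50 nt long. The submitters' processing notes name mm9 and the tools STAR 2.5, Bowtie, RSEM 1.2.31 and DESeq2, while annotation and strand are not given in the sources used here. Each deposited library column holds a normalized signal, counts divided by a size factor. Within 0.01 of a read, 100% of values up to 2000 reads were whole multiples of a step, which gave back whole reads. The deposited log2 fold changes, the test statistic (a score) and p-values are the authors' own. Of 19444 rows, 8 were moved sideways and left out.

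Genotypes were compared with limma 3.58.1 in R 4.3.3 (trend and robust empirical Bayes) on log2(normalized reads + 1), for genes with a mean of at least 10 in the higher genotype. The added 1 shrinks changes of low genes. Alternatives were pseudocounts of 0.1 and 5, other filters, edgeR 4.0.16, DESeq2 1.42.0 and limma-voom on whole reads, and leaving out each library. The fits were tested on simulated data. The members and lists were chosen with earlier results of these data known. Of 197 list entries, 183 matched a gene. Named beside the 6 genes are all class III receptors, ligands and Samd14 relatives, up to 5 of the widest changes per direction of the other pathway lists, and the 3 nearest patterns per gene. Single markers were named after their values were seen. A gene that this rule names is not reported here.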

Additional observations from a re-analysis of the deposited data

How the results depend on the processing

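Each of the 6 genes kept its direction and its call under all 13 alternatives. Log2 fold changes ran from -1.31 to -1.16 for Kit, -4.76 to -4.09 for Samd14, 3.10 to 3.69 for Flt3, 4.67 to 5.42 for Csf1r, 1.73 to 1.78 for Sh2b3 and 0.83 to 1.02 for Cbl. The highest adjusted p was 8.17e-04, for Cbl. The 5091 genes changed in all became 3915 to 5108 when a library was left out. Signal transducers that fell numbered 9, and 5 once -77-/- replicate 3 was dropped (5 to 9 over all libraries dropped in turn), and the cause was not tested. The difference in log2 ratio of Kit to Csf1r ran from -6.67 to -5.98 with 1 library left out. No other count of changed genes in the pathway lists moved by more than 1.5 times, and no fold change of a named pathway gene reversed. No paired analysis was possible because the labels give no replicate numbers that link libraries of the genotypes. Low reads limit Samd14 in -77-/- (245 reads in all) and Flt3 in wild type (354).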

Other observations

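Sh2b3 varied between the -77-/- libraries by a coefficient of variation of 0.552%, below the 2.39% that counting its reads alone would give on average. In wild type the figures were 3.89% and 4.58%. The -77-/- value rests on 3 libraries, and whether counting alone gives so low a value was not tested. The other 5 genes varied more than counting error in both genotypes, from 6.93% against 1.49% for Kit in wild type to 53.9% against 7.58% for Csf1r in wild type. The nearest patterns to Sh2b3 were picked by correlation with it, which favours genes with little scatter within a genotype. Lyn, one of these genes, was similarly even in -77-/-, at 2235 ± 5.53 normalized reads. Edem1 and Fam107b, the others nearest to Sh2b3, were less even there, at 6536 ± 127 and 13454 ± 597.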
